A study of Mus musculus with 4 samples.

Results

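The potassium channel genes of the mouse mediobasal hypothalamus were followed across cell types, across neuron populations and between saline and insulin treatment. The members are the symbols made of Kcn, a family letter code and a number, without Kcnj8 and Kcnj11, the pore subunits of the ATP-sensitive channel. They were 90 of the 31053 genes in the deposited matrix. Potassium channels let potassium leave the cell and so set the resting potential, end the action potential and limit repeated firing. Voltage-gated channels (Kv1 to Kv4, Kv7 and Kv10 to Kv12) open on depolarisation, the Slo and SK/IK channels respond to intracellular calcium or sodium, the inward rectifiers (Kir) and the Kcnk leak channels carry current near rest, and G-protein-gated rectifiers (GIRK) open when inhibitory receptors are engaged. In the arcuate nucleus such channels shape the firing of the Agrp neurons, which promote feeding, and of the Pomc neurons, which restrain it, while in astrocytes Kir channels help clear the potassium that neurons release.

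The samples were single-nucleus RNA libraries from wild-type mice with free access to chow, given either saline or insulin before the hypothalamus was dissected. All groups shared this genotype and diet, and nuclei were isolated and sorted before droplet capture. The labels used here give no dose, route, interval, age, sex or number of mice per library. There were 4 libraries, 1 Saline and 1 Insulin in each of sequencing runs NovaA-230 and NovaA-232, and they are named here by treatment and run. Values listed for the 4 libraries follow the order Saline NovaA-230, Saline NovaA-232, Insulin NovaA-230, Insulin NovaA-232. The labels do not say how many animals each library holds, so each p-value speaks for these 4 libraries and no more.

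Of 36523 annotated nuclei analysed, 23261 were neurons, 5407 astrocytes, 2921 oligodendrocytes, 876 oligodendrocyte precursors (OPC), 442 microglia, 1441 nuclei labelled Endothelial, 362 labelled Mural Cell and 274 labelled Ependymo; 423 doublets and 1116 unassigned nuclei were left out. The libraries held 63590421 to 71391593 unique molecular identifiers (UMIs), each a counted RNA molecule, and of 36216 barcode sequences 318 occurred in 2 libraries. Runs coincided with sex-linked genes: Xist was 4.53 and 4.88 CPM (UMIs of the gene per 1000000 UMIs of the library) in the NovaA-230 libraries and 1614 and 1713 CPM in the NovaA-232 libraries, so run and sex cannot be told apart. The label Endothelial went against the data. Cldn5, which seals endothelial junctions, averaged 1.69 CPM there and 538 CPM in the group labelled Mural Cell. The 5 endothelial markers summed to 250 to 337 CPM in the group labelled Endothelial and to 3659 to 3793 CPM in the group labelled Mural Cell, which also held the 5 mural markers at 1399 to 2114 CPM. The 6 ependymal-type markers, which include tanycyte genes, were Foxj1, Ccdc153, Tmem212, Dynlrb2, Rax and Col23a1. They summed to 2529 to 3074 CPM in the group labelled Endothelial and to 1648 to 2327 CPM in the group labelled Ependymo. Their sum does not tell ependymal cells from tanycytes. The groups labelled Endothelial, Mural Cell and Ependymo are therefore called by their labels only. Microglia carried neuron markers at 1827, 1817, 560 and 1579 CPM against 2961 to 3098 CPM in neurons.

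Sequence windows are shown first for 3 members on which results below turn: Kcng3, whose RNA stood apart in a single neuron population, and Kcna2 and Kcnk4, the pair whose levels were most alike over neuron populations. Each is the 250 bases before the RefSeq transcript start in build GRCm38.p6, written 5′ to 3′ on the gene's strand. The Kcng3 window lies at chr17:83631896-83632145 on the minus strand, that of Kcna2 at chr3:107101317-107101566 on the plus strand and that of Kcnk4 at chr19:6934516-6934765 on the minus strand. Where a gene had several starts, the first listed was used. The Kcna2 window falls inside that gene's GENCODE span (chr3:107101146-107115005) and so does not lie upstream of it. Capitals mark the GC box letters CCGCCC, on either strand, in Kcng3 and the E-box letters CAGCTG in Kcna2 and Kcnk4.

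Kcng3: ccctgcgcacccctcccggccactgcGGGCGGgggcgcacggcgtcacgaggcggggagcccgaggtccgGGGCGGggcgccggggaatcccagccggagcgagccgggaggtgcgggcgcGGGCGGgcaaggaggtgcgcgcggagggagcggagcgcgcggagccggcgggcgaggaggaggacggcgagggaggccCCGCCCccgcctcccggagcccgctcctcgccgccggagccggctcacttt

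Kcna2: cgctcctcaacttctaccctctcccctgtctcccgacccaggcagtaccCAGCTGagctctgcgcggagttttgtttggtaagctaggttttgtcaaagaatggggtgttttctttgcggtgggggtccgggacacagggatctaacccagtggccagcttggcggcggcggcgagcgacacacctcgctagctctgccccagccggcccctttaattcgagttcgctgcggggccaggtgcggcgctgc

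Kcnk4: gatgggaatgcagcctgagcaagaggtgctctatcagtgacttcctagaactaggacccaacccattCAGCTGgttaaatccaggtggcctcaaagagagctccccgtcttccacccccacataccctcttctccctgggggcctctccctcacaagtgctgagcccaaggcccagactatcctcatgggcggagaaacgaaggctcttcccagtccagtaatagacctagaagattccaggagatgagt

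The Kcng3 window held 4 GC box matches, beginning 224, 180, 129 and 51 bases before the start, the first 3 on the other strand. CAGCTG began 201 bases before the Kcna2 start and 183 bases before the Kcnk4 start. The Kcnk4 window also held a CCGCCC match on the other strand, beginning 63 bases before the start and left in lower case. The Kcna2 window held no CCGCCC and the Kcng3 window no CAGCTG. Both motifs were chosen after values were seen, and the motifs do not overlap each other. Windows were found for 66 of the 90 members, some with more than 1 start. CCGCCC occurred in 41 of 91 member windows (45.1%) against 32.7% of all 32851 windows of the same length, and CAGCTG in 21 of 91 (23.1%) against 13.0%. A match is a description of the letters and not of a bound site.

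Counts of the members were summed per library within each of the 8 cell types and given as CPM, the member's UMIs relative to all UMIs of that type in that library. Each type was then compared with the mean of the other 7 types by edgeR's quasi-likelihood test with library as a block, and a member is called higher or lower where the p-value adjusted over all genes is under 0.05. The authors defined the groups on these same nuclei, so the tests ask only whether a difference holds over the 4 libraries. edgeR shares information on spread across genes, so a p-value does not measure a gene's own spread. Of the 90 members, 60 passed the filter on low counts. The other 30 had at most 1337 UMIs in all (Kcnj5) and a median of 132.5. They were the GIRK subunit Kcnj5, the modifier subunits Kcns1, Kcns2, Kcng1, Kcng3, Kcng4, Kcnf1, Kcnv1 and Kcnv2, the pore genes Kcna3, Kcna7, Kcna10, Kcnd1, Kcnh4, Kcnj1, Kcnj4, Kcnj14, Kcnj15, Kcnk4, Kcnk5, Kcnk7, Kcnk15, Kcnk16 and Kcnk18, and the accessory genes Kcnab3, Kcne1, Kcne2, Kcne3, Kcne4 and Kcnmb3. Kcna7 had no UMI. Of the 90, 31 overlap another gene of the matrix, whose reads cannot always be told apart from theirs.

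Neurons held the broadest set. Of the 60 members, 49 were higher in neurons and 5 lower, against 36.7% of all 14597 genes higher and 32.7% lower, and the median log2 difference was 1.26 for the members and 0.02 for all genes. The members together made up 15552, 13345, 15051 and 13789 CPM of neurons. Of these UMIs, 30.1% were of Kcnip4, which encodes a cytoplasmic partner of Kv4 channels, and 14.2% of Kcnd2, which encodes the Kv4.2 pore. In astrocytes 17 were higher and 33 lower (28.5% and 25.2% of all genes), and in oligodendrocytes 10 and 35 (28.4% and 30.1%). In OPC 34 were higher and 3 lower (24.2% and 15.6%), and in microglia 26 and 6 (23.1% and 11.7%). The groups labelled Endothelial, Mural Cell and Ependymo had 8, 5 and 14 higher and 22, 18 and 15 lower, against 22%, 17.9% and 20.5% of all genes higher and 18.8%, 15.6% and 20.3% lower. In OPC the number lower was 1 without Saline NovaA-232 and 5 with scaling by library size alone. In the group labelled Ependymo the number lower ran from 8, without Insulin NovaA-232, to 17 over the 4 analyses that each left out 1 library. In microglia the number lower was 3 without Insulin NovaA-230 or without Insulin NovaA-232.

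**Figure D1:**
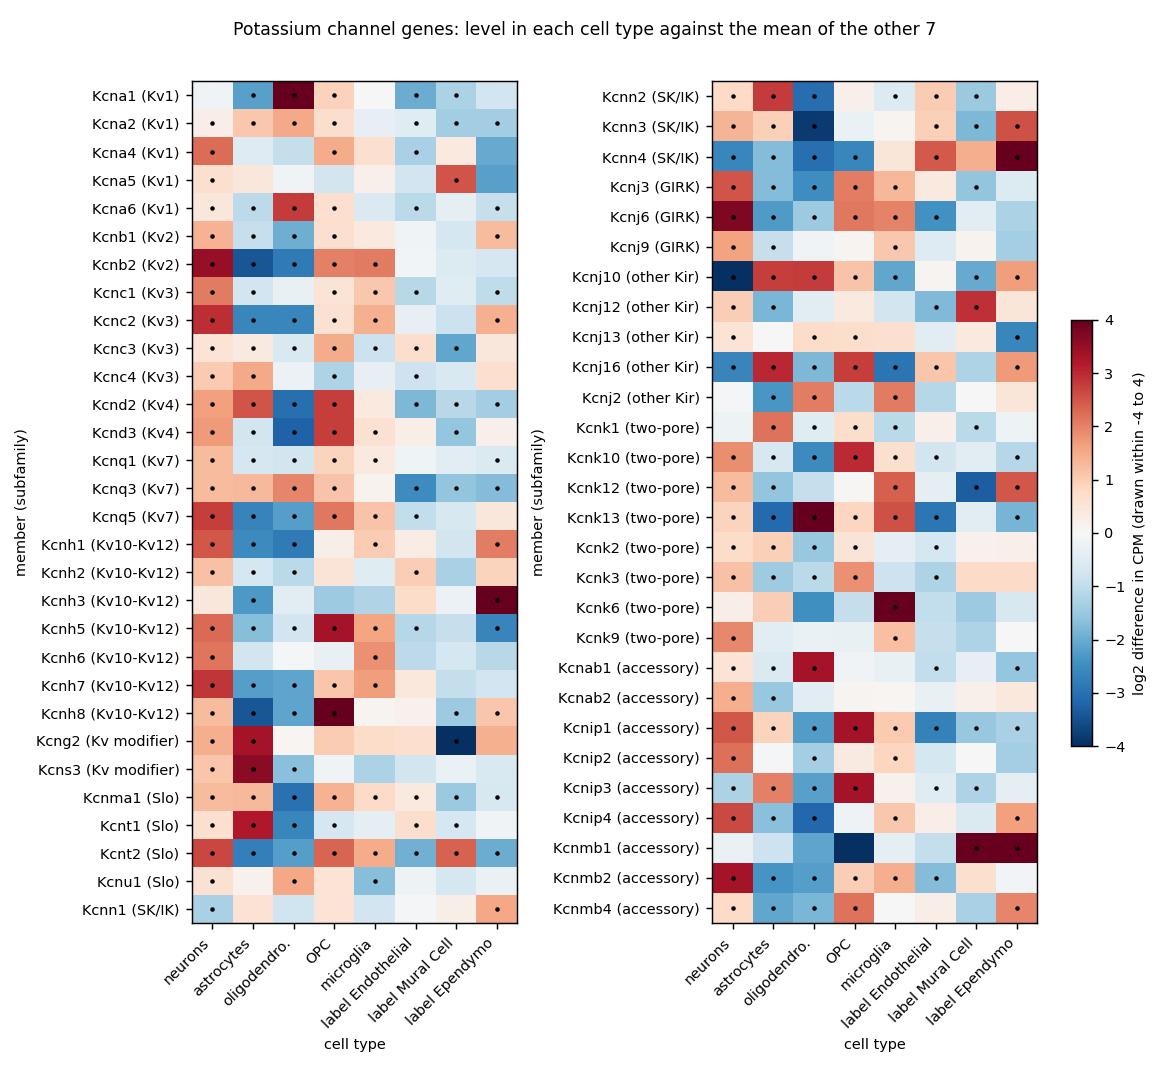
Log2 difference of 58 of the 60 tested members (rows, by subfamily) in each of the 8 cell types (columns) from the mean of the other 7, drawn within −4 to 4; dots mark an edgeR adjusted p under 0.05. The neuron column is mostly positive (49 higher and 5 lower of all 60) and the oligodendrocyte column mostly negative (10 higher, 35 lower); Kcng2 in the group labelled Mural Cell and Kcnmb1 in OPC had 0 UMIs.

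By role, every tested gene of the Kv2, Kv3 and Kv4 families, which hold delayed rectifiers and A-type channels, was higher in neurons: 2 of 2 Kv2, 4 of 4 Kv3 and 2 of 2 Kv4 genes. The same held for the Kv7 genes Kcnq1, Kcnq3 and Kcnq5, of the family that carries the M-current that damps repeated firing, 4 of 4 Slo genes and 3 of 3 tested GIRK genes. Of the Kv10 to Kv12 genes 6 of 7 were higher, of the Kcnk leak channels 6 of 8, of the Kv1 genes 4 of 5 and of the accessory genes 7 of 9, with Kcnip3 lower. The SK/IK genes were divided, with Kcnn2 and Kcnn3 higher and Kcnn1 and Kcnn4 lower. Among the other inward rectifiers Kcnj12 and Kcnj13 were higher and Kcnj10 and Kcnj16 lower. Neurons did not have the highest mean of either higher gene. Kcnj13 averaged most in microglia (19.5 CPM) and next in OPC (16.9 CPM). Kcnj12 averaged 26.6 CPM in the group labelled Mural Cell and 6.69 CPM in neurons.

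Kcnj6, a GIRK subunit (chr16:94748636-94997701, minus strand), had the largest log2 difference in neurons. It stood at 200.5, 167, 183 and 169 CPM in the neurons of the 4 libraries (179.8 ± 15.5, SD, n = 4). Every library's neurons were above the next type, microglia, at a mean of 67.2 CPM, and astrocytes were lowest at 4.56 CPM. The log2 difference was 3.73 (SE 0.15, edgeR adjusted p = 3.60e-21). Kcnb2, which encodes the Kv2.2 pore, was at 1209.5, 1218, 1258 and 1153 CPM in neurons and 17.8 ± 4.31 CPM in astrocytes, a log2 difference for neurons of 3.49 (SE 0.20, edgeR adjusted p = 2.58e-17). Kcnmb2, an inactivating partner of the large-conductance calcium-activated channel, was at 81.8, 79.2, 83.6 and 72.9 CPM, with a log2 difference of 3.33. The libraries of each of these 3 genes lay close together in neurons. The astroglial rectifier gene Kcnj10 ran the other way, at 1.44, 1.86, 1.51 and 2.5 CPM in neurons (log2 difference −4.41, SE 0.31, edgeR adjusted p = 1.29e-14). Its partner gene Kcnj16 was also lower in neurons, at 2.22 ± 0.357 CPM (log2 difference −2.63).

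In astrocytes the rectifier genes were joined by a sodium-activated channel and modifier subunits. Kcnj10 (chr1:172341210-172374085, plus strand) stood at 135 CPM in astrocytes and 133 CPM in oligodendrocytes, with log2 differences of 2.77 and 2.81. Kcnj16 averaged 64.8 CPM in astrocytes and 55.1 CPM in OPC. Kcnt1, which encodes the sodium-activated channel Slack, was at 285, 310.3, 331.7 and 316 CPM in astrocytes (310.6 ± 19.4, SD, n = 4), and the highest other type, the group labelled Endothelial, averaged 82.4 CPM. Its log2 difference was 3.20 (SE 0.09, edgeR adjusted p = 2.28e-25). The silent modifier subunit gene Kcns3 was at 30.2, 32.5, 38.9 and 32.7 CPM (log2 difference 3.60, edgeR adjusted p = 6.39e-17) and neurons followed at 7.89 CPM. Kcng2, another modifier subunit gene, was at 25.2, 17.9, 28.1 and 16.2 CPM in astrocytes. The group labelled Mural Cell had no Kcng2 UMI among 946680, which allows up to 3.17 CPM at 3 counts over the 4 libraries and makes that group at least 6.90-fold lower than astrocytes. Kcnn2, a small-conductance calcium-activated channel gene, averaged 663 CPM (log2 difference 2.79) and the leak channel gene Kcnk1 94.5 CPM (log2 difference 2.16). Kcnd2 was higher in both astrocytes (3277 CPM) and OPC (3770 CPM) and lower in oligodendrocytes (111 CPM). Kcnb2 and Kcnh8, a Kv12 gene, were the members furthest below the other types in astrocytes, with log2 differences of −3.43 and −3.41.

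Oligodendrocytes had few members above the mean of the other types, and the margins over the next type varied. Kcna1 (chr6:126640397-126646384, minus strand), which encodes the Kv1.1 pore of the juxtaparanode beside the node of Ranvier, was at 572, 749.9, 899 and 832 CPM (763 ± 141, SD, n = 4). No other type overlapped, the next being OPC at a mean of 50.7 CPM, and the log2 difference was 5.45 (SE 0.14, edgeR adjusted p = 2.25e-27). Kcna6 and Kcna2, which encode further Kv1 pores, were also higher, at 115 and 54.3 CPM (log2 differences 2.80 and 1.51). The Kv1 beta subunit gene Kcnab1 was at 1396, 834, 1102 and 738 CPM (log2 difference 3.33), with both NovaA-230 libraries above both NovaA-232 libraries. Kcnk13, a leak channel gene (chr12:99964499-100062682, plus strand), was at 278, 218, 224 and 254 CPM (243.5 ± 28.1) with a log2 difference of 4.0 (SE 0.11, edgeR adjusted p = 2.68e-26). Kcnq3, a Kv7 gene of the M-current, was at 1213, 877, 992 and 844 CPM and made up 23.7% of the member UMIs of oligodendrocytes, after Kcnab1 at 24.6% and before Kcna1 at 18.5%. Its margin over neurons, at a mean of 710.5 CPM, was narrower (log2 difference 1.96), as was that of Kcna2 over astrocytes at 43.5 CPM. Kcnj2, Kcnj13 and Kcnu1 were the other members higher, along with Kcnj10, with log2 differences of 2.05, 0.73 and 1.56; Kcnj2 and Kcnj13 averaged more in microglia (10.8 and 19.5 CPM) than in oligodendrocytes (8.32 and 16.7 CPM). Among the members lower, Kcnn3 was at 3.77 ± 1.52 CPM (log2 difference −3.84) and Kcnd3, a Kv4 gene, at 9.71 ± 4.52 CPM (log2 difference −3.24).

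OPC came after neurons in the number of members higher. Kcnh8 (chr17:52602709-52979194, plus strand), a slowly activating Kv12 channel gene, was at 329.5, 300.8, 409.8 and 288 CPM in OPC (332 ± 54.7, SD, n = 4). Neurons followed at 54.2 CPM, so the libraries did not overlap, and the log2 difference was 4.36 (SE 0.14, edgeR adjusted p = 5.53e-24). Kcnip3, a calcium-binding partner of Kv4 channels, was at 352, 378.5, 438 and 433 CPM (log2 difference 3.34). Kcnh5, a Kv10 gene, was at 205, 150.4, 196 and 151 CPM (log2 difference 3.34). Both Kv4 genes tested, Kcnd2 and Kcnd3, were higher in OPC with log2 differences of 2.77 and 2.76, and so was their partner Kcnip1 at 608 CPM (3.32). Neuron markers summed to 633, 1326, 466 and 1063 CPM in OPC; their part in these values was not tested. The 3 members lower in OPC were Kcnt1 (28.9 CPM, log2 difference −0.68), Kcnc4, at 4.90, 2.19, 2.43 and 2.79 CPM (log2 difference −1.22), and Kcnn4, with 1 UMI (edgeR adjusted p = 0.0494).

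Kcnk6, a leak channel gene (chr7:29221926-29232515, minus strand), set microglia apart, at 27.5, 44.9, 94.3 and 49.7 CPM (54.1 ± 28.4, SD, n = 4, from 101 UMIs). The next type, astrocytes, averaged 3.41 CPM and did not overlap (log2 difference 5.27, SE 0.45, edgeR adjusted p = 6.13e-12). Kcnk13 was at 80.1, 133, 178 and 102.5 CPM (log2 difference 2.53) and Kcnk12, another leak channel gene, at 15, 31.8, 43.1 and 32.0 CPM (2.38). All 3 leak channel genes were highest in Insulin NovaA-230, the library with the highest microglial marker sum (3352 CPM, against 1304, 1667 and 1962 in the others) and the lowest neuron marker sum. Kcnb2 and Kcnip4, called higher in both neurons and microglia, were lowest in that library: Kcnb2 was at 839, 798, 110.5 and 655 CPM in microglia, and Kcnip4 at 4283, 1295, 269 and 2327 CPM. Kcnk12 and Kcnk13 were also called higher in both types. The part of neuronal RNA in those microglial values was not tested. Kcnj10 and Kcnj16 were lower, Kcnj16 with 4 UMIs in all.

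**Figure D2:**
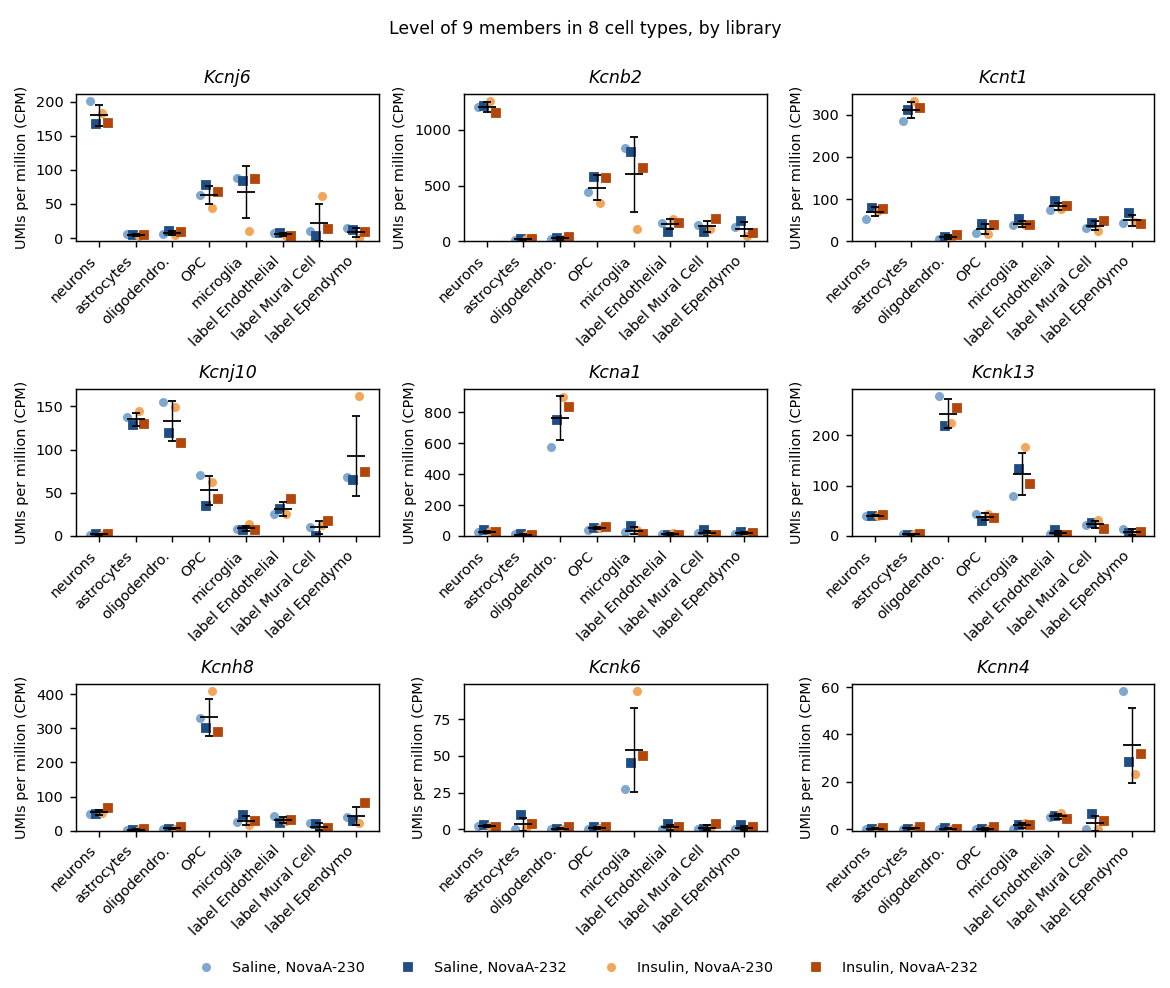
CPM of 9 members in each of the 8 cell types, 1 point per library (circles NovaA-230, squares NovaA-232; blue Saline, orange Insulin) with the mean ± SD of the 4 libraries in black. Kcna1 in oligodendrocytes (572 to 899 CPM) and Kcnh8 in OPC (288 to 409.8 CPM) lie above every other type, and Kcnk6 in microglia spreads from 27.5 to 94.3 CPM.

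The group labelled Ependymo stood out for the intermediate-conductance calcium-activated channel gene Kcnn4, at 58.4, 28.2, 23.1 and 31.7 CPM (35.4 ± 15.8, SD, n = 4, from 47 UMIs; log2 difference 5.58, SE 0.40, edgeR adjusted p = 5.64e-14). The group labelled Endothelial followed at 5.28, 5.58, 6.77 and 4.18 CPM (log2 difference 2.45), and neurons were at 0.203 CPM. All 3 of Kcnn1, Kcnn3 and Kcnn4 were higher in the group labelled Ependymo, and Kcnn2, Kcnn3 and Kcnn4 in the group labelled Endothelial. Kcnh3, a Kv12 gene, was at 24.4, 8.46, 11.6 and 19.3 CPM in the group labelled Ependymo (log2 difference 4.48), where Insulin NovaA-230 had only 16 nuclei. Kcnmb1, a beta subunit gene of the large-conductance channel, was at 29.2, 11.3, 11.6 and 40.0 CPM there and had no UMI among 5314771 in OPC, which makes OPC at least 40.8-fold lower; it lies inside Kcnip1 on the opposite strand. In the group labelled Mural Cell the inward rectifier gene Kcnj12 was at 53.1, 22.9, 6.22 and 23.9 CPM (log2 difference 2.92, from 25 UMIs). The sodium-activated channel gene Kcnt2 was at 196.6, 206, 56.0 and 178 CPM there (log2 difference 2.35), and the Kv1 gene Kcna5 averaged 14.0 CPM (2.51). Insulin NovaA-230 was lowest for Kcnj12 and Kcnt2, with 64 nuclei of that label.

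A list of 26 partner genes (auxiliary and scaffold proteins of Kv, Slo and GIRK channels, and the Hcn pacemaker channels) was counted beside the members. Of its 21 genes tested across cell types, 17 were higher and 1 lower in neurons, 13 and 2 in OPC, 3 and 14 in astrocytes, and 5 and 10 in oligodendrocytes. The Kv4 partners Dpp10 and Dpp6 were higher in neurons (949 and 1328 CPM, log2 differences 3.36 and 2.37) and in OPC (805 and 975 CPM, 3.18 and 1.96). Cntn2, a juxtaparanodal adhesion protein gene, was higher in oligodendrocytes at 262 ± 29.8 CPM (log2 difference 5.05), whereas Cntnap2, which encodes its neuronal partner at the juxtaparanode, was higher in neurons (3.91) and lower in oligodendrocytes (−1.97). Lgi1, a secreted protein gene tied to Kv1 channels, was higher in astrocytes at 514 ± 41.0 CPM (3.12).

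Within neurons the 37 populations of the authors' annotation were compared next. Of these, 35 had at least 10 nuclei in every library. Each was tested against the summed counts of all other neurons of the same library. Over 2627 member tests, 407 (15.5%) were higher and 713 (27.1%) lower, against 7.56% and 10.3% of all gene tests. Without the library block the number higher was 252. By family, the Kv10 to Kv12 genes were higher in 43 and lower in 101 of 280 tests, the Kcnk genes in 56 and 86 of 353, the accessory genes in 77 and 128 of 362, the GIRK genes in 29 and 44 of 140, and the Kv4 genes in 22 and 30 of 105. Inward rectifiers outside the GIRK family were called least often, higher in 14 and lower in 20 of 237. The partner genes were higher in 138 and lower in 182 of 822 tests.

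**Figure D3:**
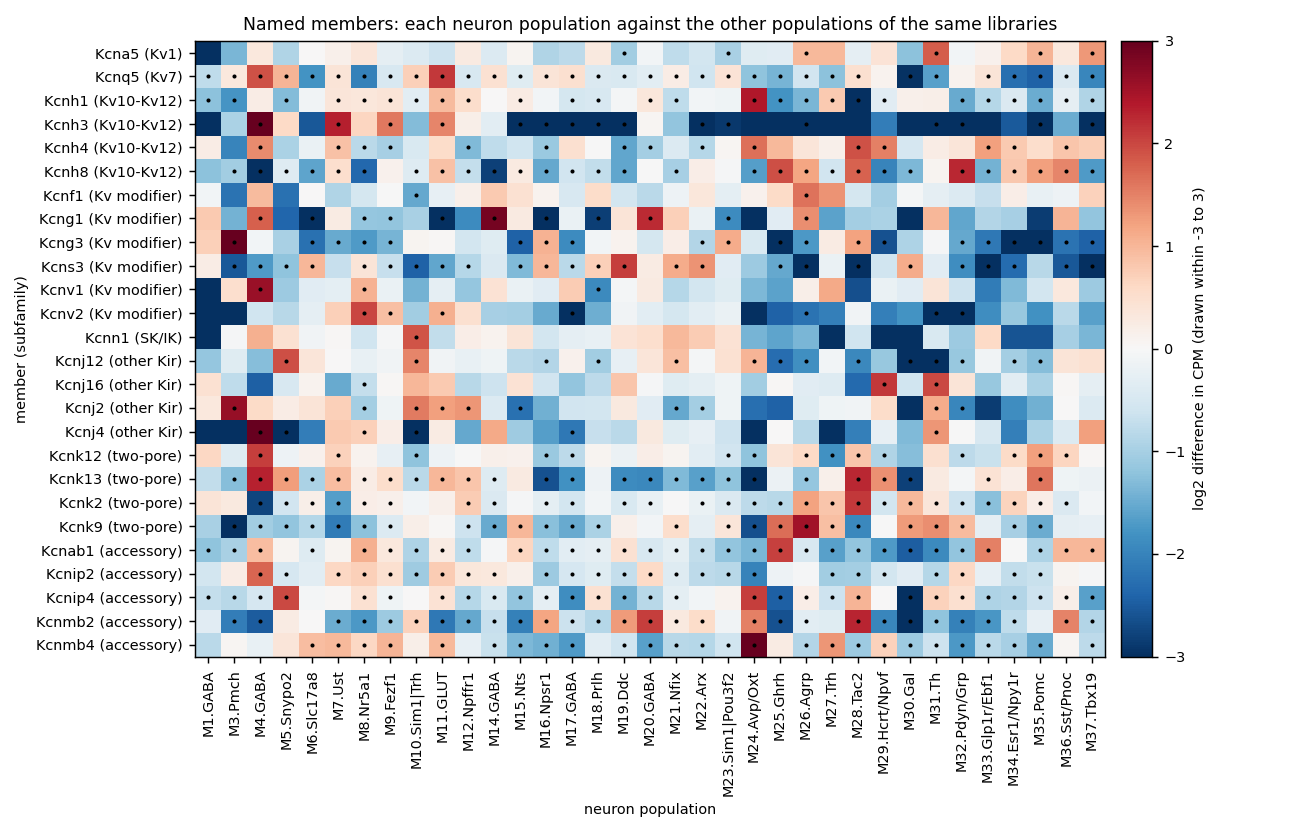
Log2 difference of the named members (rows) in each of the 35 neuron populations (columns) from all other neurons, drawn within −3 to 3; dots mark an edgeR adjusted p under 0.05. Kcng3 in M3.Pmch (5.40) lies far beyond the drawn range, and the columns of M26.Agrp and M35.Pomc hold more lower than higher members.

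Kcng3 encodes Kv6.3, a silent subunit that alters Kv2 channels without forming a channel of its own. In M3.Pmch, the population named for the melanin-concentrating hormone precursor, it stood at 174, 170.8, 161.8 and 154.5 CPM (165 ± 8.86, SD, n = 4, from 273 UMIs). All other neurons together averaged 4.21 CPM, and the next population, M28.Tac2, averaged 13.4 CPM, so no library overlapped. The log2 difference was 5.40 (SE 0.20, edgeR adjusted p = 1.94e-162), from 110 nuclei. Kcng3 was also higher in M28.Tac2 (log2 difference 1.20), was called lower in 16 populations and had no UMI in M25.Ghrh. Kcnj2, a strong inward rectifier gene, was at 12.7, 8.27, 13.9 and 21.6 CPM in M3.Pmch (log2 difference 2.62, from 22 UMIs). Kcna4, an A-type Kv1 gene, was higher there at 55.2 CPM (1.66). The members lower in M3.Pmch included Kcnk9 (0.898 CPM, log2 difference −4.78), Kcnip1 (18.9 CPM, −4.32) and the GIRK gene Kcnj3 (51.2 CPM, −2.40). In all, 7 of 73 members were higher and 23 lower in M3.Pmch, against 7.03% and 10.4% of genes.

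**Figure D4:**
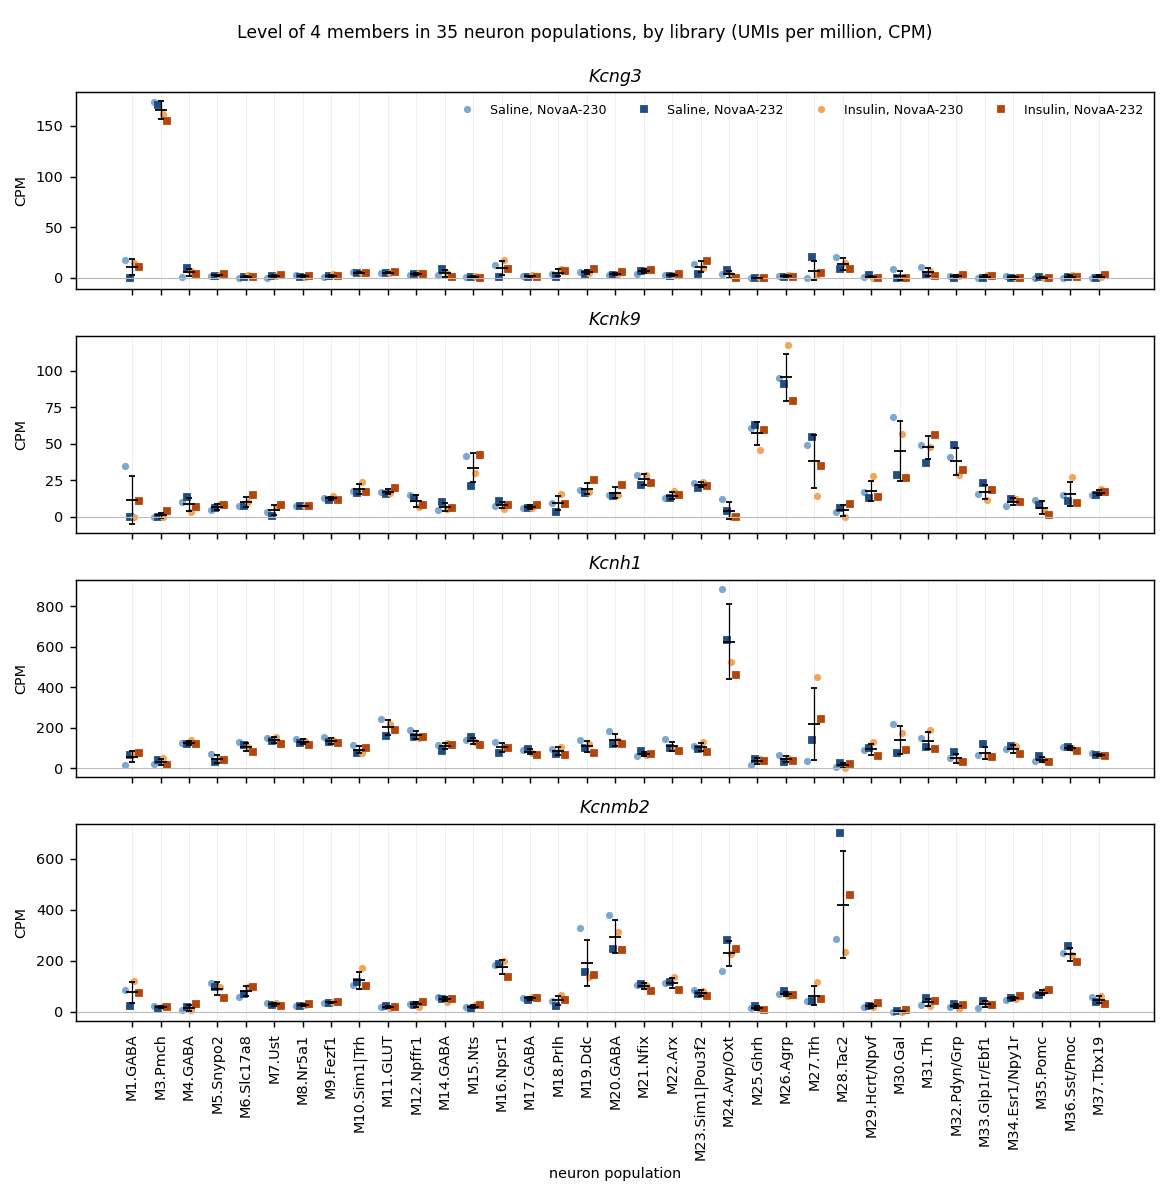
CPM of Kcng3, Kcnk9, Kcnh1 and Kcnmb2 in each of the 35 neuron populations, 1 point per library (circles NovaA-230, squares NovaA-232; blue Saline, orange Insulin). Kcng3 is at 154.5 to 174 CPM in M3.Pmch and Kcnk9 at 78.9 to 117 CPM in M26.Agrp; the Kcnmb2 points of M28.Tac2 split by run.

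Kcnk9, which encodes the acid-sensitive leak channel TASK-3 (chr15:72501089-72546340, minus strand), was highest in M26.Agrp, at 95, 90.6, 117 and 78.9 CPM (95.5 ± 16.1, SD, n = 4). The other neurons averaged 15.6 CPM, and the log2 difference was 2.52 (SE 0.10, edgeR adjusted p = 6.97e-40). Next in order were M25.Ghrh at 57.1 CPM (1.67) and M31.Th at 47.4 CPM (1.41), both also higher than the rest. The modifier subunit genes Kcnf1 (3.96, 9.82, 15 and 11.2 CPM) and Kcng1 (1.13, 2.18, 9.78 and 5.92 CPM) were higher in M26.Agrp as well, with log2 differences of 1.62 and 1.39. Both Insulin libraries exceeded both Saline libraries for each of these low genes. Among genes tested for Insulin against Saline in M26.Agrp, this held for 6 of 48 members and 1820 of 11227 genes. No member passed that test there. The Kv3 gene Kcnc2, whose channels allow fast firing, averaged 1375 CPM (log2 difference 1.29), its highest level in any population, and the leak channel gene Kcnk2 averaged 429.6 CPM (1.20). More members were lower: 33 of 74, with 14 higher, against 18.7% and 15.6% of all genes. Kcnh3 had no UMI among 5535409 in M26.Agrp, which allows up to 0.542 CPM at 3 counts over the 4 libraries and makes it at least 2.43-fold lower than the other neurons at 1.32 CPM. Kcns3 had 3 UMIs (log2 difference −3.90), Kcna1 was at 2.00 CPM (−3.89) and Kcnn2 at 29.6 CPM (−2.97), its lowest level over the populations.

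M35.Pomc had 10 members higher and 33 lower of 75, against 7.57% and 12% of all genes. Kcnj3, which encodes the GIRK1 subunit, was at 744, 663, 711 and 658 CPM (694 ± 41.0, SD, n = 4; log2 difference 1.14), its highest level in any population. In M26.Agrp the same gene was lower than in the other neurons (log2 difference −0.73), and in M3.Pmch it was lowest. Kcnk13 was at 120.4, 116, 135 and 152 CPM in M35.Pomc (131 ± 16.3; log2 difference 1.61, edgeR adjusted p = 1.24e-66), whereas in M26.Agrp it was lower (−1.16). Kcnh8 was at 121.5, 90.1, 145 and 209.7 CPM (1.23). Kcnk9 was lower in M35.Pomc (−1.49) and higher in M26.Agrp. Kcnc2 and Kcnk2 were higher in M35.Pomc too, by smaller log2 differences of 0.24 and 0.21. Kcna1 (−2.74) and Kcnq5 (−2.43) were among the lower, Kcng3 had 2 UMIs (−3.44), and Kcnh3 had no UMI among 3862722, at least 1.69-fold lower than in the other neurons. M26.Agrp and M35.Pomc were each tested against all other neurons, and the difference between them was not tested.

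In M24.Avp/Oxt, the vasopressin and oxytocin population, the Kv10 gene Kcnh1 was at 884, 632, 524 and 459.9 CPM against 110.4 CPM in the other neurons (625 ± 187, SD, n = 4; log2 difference 2.41, edgeR adjusted p = 5.13e-107). Every library exceeded those of the next population, M27.Trh, at 37.6 to 450.7 CPM. The beta4 subunit gene Kcnmb4, whose product slows the large-conductance channel, was at 160.3, 148, 175 and 189.6 CPM (log2 difference 2.98) and Kcnip4 at 18891 ± 4000 CPM (2.08). In M28.Tac2 the mechanically gated leak channel gene Kcnk2 was nearly constant, at 831, 837, 813 and 806 CPM (822 ± 14.8; log2 difference 2.12), and the next population was M26.Agrp. Kcnmb2 was at 285, 701.5, 235 and 458 CPM in M28.Tac2 (log2 difference 2.28), where both NovaA-232 libraries exceeded both NovaA-230 libraries, and run and sex genes coincide. Kcnk13 was at 199, 212, 174 and 209 CPM there (log2 difference 2.25), and Kcnh4 at 16.3, 18.5, 22.0 and 23.5 CPM (1.91).

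The population M4.GABA had the highest level of several members. Kcnh3 was at 16.9, 17.6, 24.9 and 19.0 CPM there (log2 difference 4.28, SE 0.39, edgeR adjusted p = 3.16e-26) and had no UMI in 16 of the 35 populations. The inward rectifier gene Kcnj4 was at 15.8, 15.7, 14.7 and 15.6 CPM (3.31), the modifier subunit gene Kcnv1 at 14.5 ± 4.51 CPM (2.58), Kcnk12 at 54.2 ± 10.3 CPM (2.07) and the Kv4 partner Kcnip2 at 113 ± 10.9 CPM (1.76). Kcnk13 was at 172.6, 129, 195 and 235.5 CPM (2.30), second to its level in M28.Tac2. Kcnh8 had its lowest level over the populations in M4.GABA, at 2.73 CPM. In all, 20 of 74 members were higher and 22 lower, against 8.38% and 12.8% of genes.

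M8.Nr5a1, named for a transcription factor of the ventromedial nucleus, had 35 of 77 members higher and 17 lower, against 21.1% and 21.2% of all genes; without the library block the counts were 19 and 9. The modifier subunit gene Kcnv2 led at 9.62, 7.82, 5.30 and 4.61 CPM (log2 difference 2.00), and Kcnb2 (1.36), Kcnq3 (1.34), Kcnj5 (1.32), Kcnn3 (1.31) and Kcna1 (1.21) followed. Kcnip3 (−2.49), Kcnt2 (−2.44), Kcnh8 (−2.36) and Kcnq5 (−2.02) were the furthest below. Elsewhere, Kcnq5 was highest in M11.GLUT, at 1824, 2025, 2000 and 2710 CPM (2.12), and Kcnh8 in M32.Pdyn/Grp, at 253, 177, 273 and 298 CPM (2.26). Kcnab1 was highest in M25.Ghrh, at 888, 913, 768 and 864 CPM (2.05), and Kcna5 in M31.Th, at 11.0, 14.4, 8.18 and 17.5 CPM (1.82). Kcns3 was highest in M19.Ddc (29.1 ± 6.71 CPM, 2.07), Kcng1 in M14.GABA (10.6 ± 1.28 CPM, 2.86), Kcnj12 in M5.Snypo2 (22.2 ± 8.65 CPM, 1.94) and Kcnj16 in M29.Hcrt/Npvf (9.50 ± 2.66 CPM, 2.12, from 30 UMIs). The Kv4 partner Kcnip1 and Kcnq5 were each higher in 13 of 35 populations, the most of any member, while 8 members tested in every population were higher in none: Kcna3, Kcnd1, Kcnh2, Kcnh6, Kcnj10, Kcnj13, Kcnk6 and Kcnk18. A further 4, tested in fewer populations, were higher in none (Kcne2, Kcnj14, Kcnk7 and Kcnmb3).

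Counts in the other populations named above ran in both directions. M24.Avp/Oxt had 9 of 73 members higher and 23 lower (6.81% and 10.7% of genes), M28.Tac2 13 of 73 and 22 (5.33% and 10.5%), and M25.Ghrh 11 of 74 and 25 (7.33% and 11.7%). M31.Th had 12 of 75 higher and 25 lower (9.01% and 13.6%), M32.Pdyn/Grp 8 and 37 of 75 (9.48% and 13.3%), M19.Ddc 12 and 20 of 75 (8.12% and 11.3%) and M29.Hcrt/Npvf 11 and 22 of 75 (7.81% and 10.1%). Where Kcnn1, an SK gene, was highest, in M10.Sim1|Trh (4.79 ± 0.740 CPM, log2 difference 1.88, from 27 UMIs), 17 of 77 members were higher and 18 lower (8.97% and 11.3%). M5.Snypo2 had 13 of 74 in each direction (6.99% and 8.41%), M14.GABA 12 of 76 in each (5.87% and 8.5%) and M11.GLUT 17 and 15 of 76 (9.46% and 10.7%). Higher members outnumbered lower ones in M9.Fezf1, with 26 and 14 of 77 (12.8% and 11.7%), and in M7.Ust, with 20 and 11 of 76 (8.02% and 9.79%). In M17.GABA only 3 of 77 were higher and 25 lower (4.78% and 7.57%), and in M1.GABA 0 of 72 were higher and 5 lower (1.71% and 1.92%), where 18 had an unadjusted edgeR p under 0.05. In M5.Snypo2 the number lower was 6 without Saline NovaA-232, and in M1.GABA it was 2 without Saline NovaA-232 and 1 without Insulin NovaA-232. Without the library block M9.Fezf1 had 14 higher and 5 lower, M14.GABA 5 and 7, and M17.GABA 0 and 12. The number lower without the block was 10 in M10.Sim1|Trh, 7 in M5.Snypo2, 6 in M7.Ust and 1 in M1.GABA, and the number higher was 9 in M26.Agrp and 6 in M35.Pomc.

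Levels of 62 members with at least 500 UMIs in neurons were set side by side over the 35 populations. The Spearman correlation of a pair, over population means that share 4 libraries and their depth, had a median of 0.02 over 1891 pairs, and 1029 pairs were above 0. The 10 pairs most alike were led by Kcna2 with Kcnk4 (0.76), Kcna1 with Kcna2 (0.74) and Kcna1 with Kcnv2 (0.67). Kcna1 with Kcnk4 (0.64), Kcna2 with Kcnv2 (0.59), Kcna1 with Kcnh5 (0.58) and Kcna2 with Kcnh5 (0.56) drew on the same genes. The rest were Kcnmb4 with Kcnq3 (0.62), Kcnh6 with Kcnq1 (0.59) and Kcnip4 with Kcnj5 (0.56). Kcna2 averaged 47.9 CPM in M8.Nr5a1 and 9.88 CPM in M31.Th, and Kcnk4, which encodes the leak channel TRAAK, 4.14 and 0 CPM. Both averaged most in M1.GABA (68.8 and 8.05 CPM), a population with 17 and 2 UMIs of them. Kcnk4 had 685 UMIs over all cell types and overlaps Catsperz on the same strand. The windows of Kcna2 and Kcnk4 shown above each hold 1 CAGCTG, that of Kcna2 inside the annotated gene. At the other end, Kcnj13 and Kcnk4 had a correlation of −0.69 and Kcnk9 and Kcnn3 one of −0.67.

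Insulin was compared with Saline within each cell type and each population, 2 libraries against 2. No member passed the test without a term for run. In cell types 0 of 327 member tests had an edgeR adjusted p under 0.05 and 20 had an unadjusted p under 0.05, and the share of all 88452 gene tests called was 0%. In populations the counts were 0 and 47 of 1588 member tests, with 0.000835% of all gene tests called higher and 0% lower. DESeq2 and limma-voom called 0 members in either. With run as a block, edgeR called 0 members in cell types and 2 in populations, Kcnmb2 in M19.Ddc and Kcnip4 in M30.Gal, and DESeq2 with the same block called 0 in either. Leaving out 1 library at a time left a lone library on 1 side, and whether members passed then depended on the library left out. With 2 libraries against 2, an exact permutation test cannot give a two-sided p below 0.333. In cell types both Insulin libraries exceeded both Saline libraries in 48 tests (14.7%) and fell below both in 43 (13.1%), against 14% and 12.9% of all genes. In populations these were 210 (13.2%) and 224 (14.1%) of 1588, against 14.2% and 13.8%. A p above the threshold does not show that the groups were alike.

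The members with the smallest p-values in each direction had these levels. In neurons Kcna5, a Kv1 gene, was at 2.34 and 3.33 CPM in the Saline libraries and 3.64 and 5.05 CPM in the Insulin libraries (log2 difference 0.61, SE 0.30). Kcnf1 was at 2.5 and 2.76 against 3.27 and 3.86 CPM (0.43) and Kcnh8 at 50.2 and 48.8 against 52.1 and 65.6 CPM (0.24). On the lower side Kcnab1 was at 216 and 212 against 184 and 194.5 CPM (−0.18), Kcnk6 at 2.32 and 2.87 against 1.88 and 1.75 CPM (−0.51) and Kcna10 at 0.481 and 0.531 against 0.302 and 0.358 CPM (−0.62). The groups did not overlap for any of these 6 genes, which largely follows from picking them by p-value. The edgeR adjusted p was 1.00 for each. In neurons both Insulin libraries exceeded both Saline libraries for 11 of 80 members and fell below both for 7. Over all 20275 genes tested there these were 1773 and 2342. In the group labelled Mural Cell, Kcnd2 was at 271 and 219.5 against 789.7 and 615.5 CPM (log2 difference 1.51, SE 0.30, edgeR adjusted p = 1.00). The 5 neuron markers summed to 425 and 616 against 964 and 698 CPM in that group, and their part was not tested. In astrocytes Kcna1 was at 9.99 and 12.1 against 3.91 and 5.10 CPM (−1.31), while in oligodendrocytes it was at 572 and 749.9 against 899 and 832 CPM (0.40). In microglia Kcnmb2 was at 62.6 and 29.9 against 10.8 and 14.4 CPM (−1.87, edgeR adjusted p = 0.895), beside neuron markers of 1827 and 1817 against 560 and 1579 CPM; their part was not tested.

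The other cell types had values of the same kind. In OPC Kcnj16 was at 38.0 and 47.0 CPM with Saline and 76.9 and 58.5 CPM with Insulin (log2 difference 0.66), and Kcnq1 at 293 and 275 against 236 and 209.7 CPM (−0.36). In the group labelled Endothelial Kcnq5 was at 64.2 and 29.0 against 99.3 and 79.4 CPM (0.87) and Kcnq3 at 83.8 and 135 against 61.0 and 55.9 CPM (−0.91). In the group labelled Ependymo Kcnk12 was at 19.5 and 8.46 against 46.3 and 46.9 CPM (1.82) and Kcnb2 at 131.5 and 183 against 46.3 and 71.7 CPM (−1.30). In oligodendrocytes Kcnip3 was at 17.6 and 17.8 against 6.65 and 12.5 CPM (−0.91). The Saline and Insulin libraries did not overlap for any of these 7 gene and cell type pairs, and none passed the test. The pairs were picked by p-value, so the lack of overlap largely follows from the choice. Over the 8 cell types 14% of all gene tests were separated upward in this way and 12.9% downward.

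**Figure D5:**
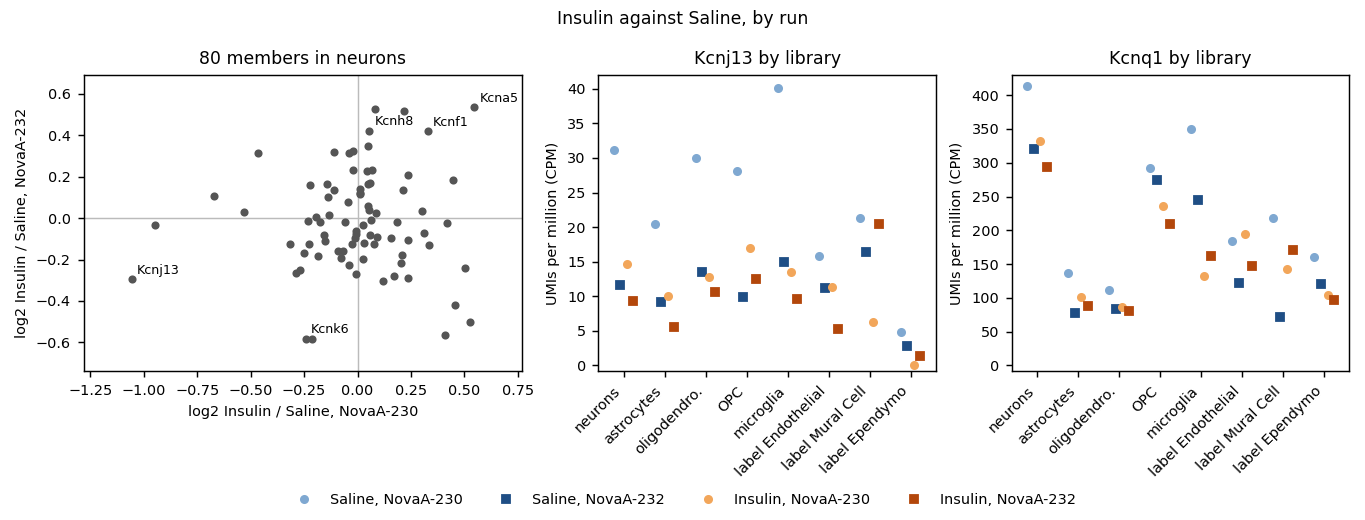
Left, log2 of Insulin over Saline CPM (pseudocount 0.5) in neurons for 80 members, NovaA-230 on the horizontal and NovaA-232 on the vertical axis; right, CPM of Kcnj13 and Kcnq1 by library in the 8 cell types. Of the 80 members 47 lie within 0.25 of 0 in both runs, and Saline NovaA-230 is highest for Kcnj13 in all 8 types.

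Within each run the Insulin library could be set against its Saline library in neurons. Of 80 members, 20 were higher with Insulin in both runs, 24 lower in both and 36 higher in one and lower in the other. These directions were not counted over all genes, so the counts do not set the members apart from other genes. Differences were small, with 47 members within 0.25 log2 units of 0 in both runs. Kcna5 repeated (0.55 in NovaA-230 and 0.54 in NovaA-232), whereas Kcna1 (0.41 and −0.57) and Kcns3 (0.53 and −0.50) went opposite ways. In M26.Agrp the Slo gene Kcnt2 was at 41.3 and 56.7 CPM with Saline and 68.5 and 71.7 CPM with Insulin. In M35.Pomc Kcnq5 was at 102 and 182 against 96.3 and 76.7 CPM (log2 difference −0.74). Neither passed the edgeR test after adjustment.

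Kcnj13 and Kcnq1 were highest in Saline NovaA-230 in most groups of nuclei, a pattern noticed after the values were seen. In neurons Kcnj13 was also at a lower level with Insulin within each run (log2 differences −1.06 in NovaA-230 and −0.30 in NovaA-232), as was Kcnq1 (−0.32 and −0.12), and neither passed the test. Kcnj13, an inward rectifier gene best known in epithelia, was at 31.1, 11.6, 14.7 and 9.38 CPM in neurons, 20.5, 9.14, 10.0 and 5.56 CPM in astrocytes and 30.1, 13.5, 12.8 and 10.6 CPM in oligodendrocytes. Saline NovaA-230 was highest in all 8 cell types and in 34 of 35 populations. Kcnq1, a Kv7 gene, was highest in Saline NovaA-230 in 7 of 8 cell types and in 35 of 35 populations. Over the populations its lowest, median and highest CPM were 347.9, 414.6 and 508 in that library, and the medians of the other libraries were 319, 329 and 295. Kcnma1, the large-conductance channel gene, was highest there in 30 of 35 populations. Of 6 choroid plexus genes listed after the values were seen, Ttr, Folr1, Aqp1 and Otx2 were at 0.121 to 0.818 CPM over all annotated nuclei. Clic6 was at 5.69, 7.91, 5.63 and 7.94 CPM and Kl at 4.61, 3.39, 4.22 and 4.10 CPM, so that Kl, like Kcnj13, was highest in Saline NovaA-230. Kcnj13 overlaps Gigyf2 and Kcnq1 overlaps Kcnq1ot1, both on the opposite strand.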

How the data were processed

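Per the submitters' processing notes, the libraries were processed with Cell Ranger against GRCm38. The authors deposited 1 matrix of raw UMI counts per gene and nucleus for all libraries, with no normalization, and a table giving each nucleus its library, cell type and neuron population. All 41156 barcodes had at least 500 UMIs, and 4633 had no annotation. Another 11 annotated nuclei had no barcode of the same spelling, and the authors' groups for doublets (423 nuclei) and unassigned nuclei (1116) were left out; no doublet caller was run. Nuclei were not treated as replicates: counts were summed per library and group, at 4 libraries with a median of 5472.5 to 6859.5 UMIs per nucleus. M2.Hdc and M13.Irx5 were left out for fewer than 10 nuclei in 1 library. Tests used edgeR 4.0.16 in R 4.3.3 (TMM scaling, filterByExpr with a minimum count of 10 and total of 15, quasi-likelihood test) on all genes, with Benjamini-Hochberg adjustment over all genes and a threshold of 0.05. The library was a block between groups, and Insulin against Saline had none. The scripts were tested on simulated data. DESeq2 1.42.0 and limma 3.58.1 served as alternatives, beside RLE scaling, library size alone, no filter, run as a block, single runs, left-out libraries and populations with at least 50 nuclei per library. CPM used each group's own UMI total, and intervals or floors cover counting error only.

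Members and lists were chosen with earlier results of these data known. Named members were the 3 highest and 2 lowest called per cell type, the 25 members with the largest difference in their leading population, the 3 highest and 2 lowest in M26.Agrp and M35.Pomc, each with at least 20 UMIs, the smallest p-values for Insulin against Saline (3 per direction in neurons, 1 in other types), and the 10 most alike pairs. Of these, 1 is not reported here by name. Other members are named as examples chosen after their values were seen. Gene positions are those of GRCm38 with its GENCODE annotation. Promoter windows came from RefSeq. The same-run pairing was checked: deviations of same-run libraries from their group means correlated at 0.718 over 20275 genes in neurons, between 0.131 and 0.524 in the other types apart from microglia, and at −0.045 in microglia.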

Additional observations from a re-analysis of the deposited data

Results flagged for a closer look

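Among 73 groups of 4 libraries tested, 4 had 1 library whose gap to the rest exceeded Dixon's critical share of the group's range, and chance sets about 1 in 20 such groups apart. Insulin NovaA-230 had Kcnj10 at 13.5 CPM in microglia, the other libraries lying between 6.41 and 7.51 CPM, and Kcnk12 at 6.22 CPM in the group labelled Mural Cell, from 1 UMI, with 0 in the others. Kcnn4 was at 0.697 CPM in the OPC of Insulin NovaA-232, from 1 UMI, with 0 in the other libraries. Kcng3 was at 1.37 CPM in the M35.Pomc neurons of Saline NovaA-232, from 2 UMIs, again with 0 in the others. For Kcnk12, Kcnn4 and Kcng3 the gap is thus the whole range whatever the count. The rate of 1 in 20 does not hold for such groups.

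Some members had both Insulin libraries above both Saline libraries in one cell type and below both in another. Over the 8 cell types 14% of all gene tests were separated upward in this way and 12.9% downward. How many of all genes were separated both ways was not counted. Kcna1 differed by 204 CPM (Insulin minus Saline) in oligodendrocytes and 9.98 CPM in OPC, but by −6.55 CPM in astrocytes. Kcnk6 differed by 35.8 CPM in microglia and −0.777 CPM in neurons. Kcnip3 differed by 2.46 CPM in neurons, 70.3 CPM in OPC and 12.6 CPM in microglia, but by −8.09 CPM in oligodendrocytes. Kcnj16 differed by 25.2 CPM in OPC, by −3.68 CPM in the group labelled Endothelial and by −20.4 CPM in the group labelled Ependymo. Kcnq5 differed by 42.8 CPM in the group labelled Endothelial and −91.2 CPM in that labelled Ependymo. In the group labelled Mural Cell Kcnq3 differed by 85.7 CPM and Kcnd2 by 457 CPM, against −51.0 CPM and −107 CPM in the group labelled Endothelial. Kcnk12 differed by 32.6 CPM in the group labelled Ependymo and by −0.55 CPM in oligodendrocytes. Insulin NovaA-230 had only 16 nuclei labelled Ependymo. In the group labelled Mural Cell the neuron marker sum was also higher in both Insulin libraries, and its part was not tested. For each of these members the difference between cell types was not tested.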

How the results depend on the processing

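No paired analysis by replicate number was possible because the matrix names libraries by run and not by the replicate numbers of the titles, so run served as the replicate block for Insulin against Saline. With the run block 0 members passed in cell types and 2 in populations: Kcnmb2 in M19.Ddc (328, 155, 137 and 143 CPM, log2 difference −0.74) and Kcnip4 in M30.Gal (469, 316, 1232 and 511 CPM, 1.08). DESeq2 with the same block called 0 in either. With no filter on low counts 2 passed in cell types (Kcnd2 and Kcnip4 in the group labelled Mural Cell) and 3 in populations (Kcnmb2 in M19.Ddc, Kcnh1 and Kcnip4 in M27.Trh). Leaving out 1 library at a time gave 0 to 15 calls in cell types and 0 to 31 in populations: 7 and 12 without Saline NovaA-230, 4 and 31 without Saline NovaA-232, 0 and 0 without Insulin NovaA-230, and 15 and 4 without Insulin NovaA-232, where the lone library is assumed to vary like the others. Of the 31, 11 were Kcnj13 called lower, as were 2 of the 4.

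Across cell types leaving out 1 library gave 145 to 159 members higher (163 with all) and 112 to 137 lower (137), and NovaA-230 alone gave 76 lower. Across populations it gave 353 to 382 higher (407) and 621 to 637 lower (713), and dropping the replicate block gave 252 higher. Values of the named members kept their direction under each alternative run, but 17 of their recomputed values across cell types and 14 across populations missed the threshold, and 3 for Insulin against Saline passed it. Scaling by library size alone moved the median of all genes by −0.22 to 0.27 log2 units across cell types, and DESeq2 moved it by up to 0.53 in populations. Depth limits the low members: 30 of 90 could not be tested across cell types, and values resting on fewer than 50 UMIs, as in the groups labelled Mural Cell and Ependymo, carry wide errors.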
